A study of Mus musculus with 6 samples.

Results

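Expression of 39 genes of glycolysis and of the response to low oxygen was compared between pituitaries of Jmjd2a null mice and of their wild-type littermates. The genes were taken as the array probes assigned to a RefSeq transcript of a listed glycolytic or hypoxia-inducible gene. They were 67 of the 55681 non-control probes, and all 39 genes passed the filter on dim probes. By role they comprise 19 glycolytic enzymes, 4 genes for glucose and lactate transport and the control of pyruvate oxidation, 10 other hypoxia targets and 6 genes of oxygen sensing. The groups were 3 Jmjd2a-/- females (KO) and 3 Jmjd2a+/+ females (WT), each hybridised to an array of its own with a single dye, Cy3. All 6 were virgin C57BL6 littermates of 8 weeks, killed 24 h after their oestrus cycle had been activated with soiled bedding of a stud male. Total RNA came from the whole pituitary, and the labels give a null genotype with no tissue-restricted deletion, so a difference cannot be placed in 1 cell type.

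Glycolysis converts glucose to pyruvate in the cytosol and yields ATP without oxygen, and lactate dehydrogenase can then turn pyruvate into lactate. Hypoxia-inducible factors (HIF) are transcription factors made of an oxygen-labile alpha subunit (HIF1A, or EPAS1, also called HIF2A) and ARNT. In the presence of oxygen the prolyl hydroxylases EGLN1 and EGLN3 mark the alpha subunit for degradation through VHL, and in its absence the factor binds hypoxia response elements and activates genes of glucose uptake, glycolysis, blood vessel growth and mitochondrial removal. The product of Jmjd2a (current symbol Kdm4a) takes methyl groups off histone H3 and itself needs oxygen to do so. The pituitary is an endocrine gland with a dense capillary network, in which glycolytic enzymes and HIF targets are expressed by hormone cells, endothelium and supporting cells alike.

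Between 34636 and 40569 probes per array were well above background, and the precision is limited by the 3 arrays in each group. Levels are given as log2 intensity relative to each array's 75th percentile, and differences as log2 fold change of KO over WT with the standard error from limma. Kdm4a had levels of 1.45, 1.20 and 1.36 on the KO arrays, against 2.14, 1.90 and 1.85 on the WT arrays, a log2 fold change of -0.62 ± 0.14 or 64.9% of the WT level (limma adjusted p = 0.238). The groups did not overlap, but the labels do not say which part of the gene is deleted, nor whether the probe lies in it. Limma called 0 of 26889 features (0%) at an adjusted p under 0.05, while 3446 (12.8%) had an unadjusted p under 0.05. More features lay below 0 than above (61% below), and the median of all features was -0.076. Hormone genes of the anterior and intermediate lobes were well above background on all 6 arrays (7 of 7). WT replicate 3 stood apart in markers of other cells: the summed level of 8 neutrophil markers was 5.04 to 5.07 in KO and 6.53 to 18.9 in WT, and that of 7 Schwann cell markers 13.3 to 14.2 in KO and 12.3 to 20.7 in WT, each with its highest value in WT replicate 3. Of the neutrophil markers 6 and of the Schwann cell markers 7 were well above background on all arrays.

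The core of the hypoxia response element, searched as ACGTG or GCGTG and on the other strand as CACGT or CACGC, was looked up in RefSeq promoter windows of GRCm38.p6 that run from 250 bases before to 50 bases after the start of transcription. CACGTG reads as a core on both strands and was counted once for each. Of the 39 genes, 35 had a window and 39 of their 49 windows (79.6%) held at least 1 core, against 14380 of 32851 windows of all genes (43.8%). The share was 77.4% for the glycolytic enzymes (24 of 31 windows) and 88.9% for the other hypoxia targets (8 of 9). With ACGTG and its reverse alone it was 53.1% of the members' windows and 19.6% of all windows. These letters are short and occur often, and some genes have several windows, so the shares are descriptions of sequence and not of HIF binding. Windows are shown, with each core in capitals, for Slc2a1, Slc16a3, Pdk1 and Adm, which were among the genes lowest in KO. They are also shown for the enzymes Ldha and Pgk1, whose KO and WT arrays overlapped. For a gene with several windows, a window with a core was picked. Of the 4 windows of Slc2a1, Slc16a3 and Pdk1 together, 3 held a core. Ndrg1, also among the lowest, had no window.
Slc2a1 (chr4:119108495-119108794, plus strand): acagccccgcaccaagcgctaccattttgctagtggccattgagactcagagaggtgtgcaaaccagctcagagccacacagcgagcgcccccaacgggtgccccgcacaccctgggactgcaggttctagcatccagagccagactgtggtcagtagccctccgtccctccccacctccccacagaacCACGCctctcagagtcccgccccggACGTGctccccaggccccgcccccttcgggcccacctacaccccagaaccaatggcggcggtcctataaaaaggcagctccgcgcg
Slc16a3 (chr11:120948817-120949116, plus strand): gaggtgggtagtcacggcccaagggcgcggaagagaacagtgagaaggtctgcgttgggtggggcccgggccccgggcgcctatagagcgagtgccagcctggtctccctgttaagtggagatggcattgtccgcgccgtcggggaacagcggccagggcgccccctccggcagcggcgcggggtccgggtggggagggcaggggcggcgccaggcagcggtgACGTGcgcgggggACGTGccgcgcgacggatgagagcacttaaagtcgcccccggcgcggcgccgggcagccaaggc
Pdk1 (chr2:71872974-71873273, plus strand): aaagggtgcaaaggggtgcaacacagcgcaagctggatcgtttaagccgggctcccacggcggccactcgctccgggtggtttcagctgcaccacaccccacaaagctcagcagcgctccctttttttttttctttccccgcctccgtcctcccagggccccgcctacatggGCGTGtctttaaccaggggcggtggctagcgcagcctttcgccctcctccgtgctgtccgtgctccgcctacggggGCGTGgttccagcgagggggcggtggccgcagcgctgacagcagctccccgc
Adm (chr7:110627407-110627706, plus strand): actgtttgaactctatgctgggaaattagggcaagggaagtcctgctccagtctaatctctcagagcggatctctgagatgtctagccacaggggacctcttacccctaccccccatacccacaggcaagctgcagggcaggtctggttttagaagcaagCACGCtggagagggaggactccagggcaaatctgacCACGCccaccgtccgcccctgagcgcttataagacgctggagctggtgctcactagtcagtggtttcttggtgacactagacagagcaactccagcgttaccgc
Ldha (chr7:46845554-46845853, plus strand): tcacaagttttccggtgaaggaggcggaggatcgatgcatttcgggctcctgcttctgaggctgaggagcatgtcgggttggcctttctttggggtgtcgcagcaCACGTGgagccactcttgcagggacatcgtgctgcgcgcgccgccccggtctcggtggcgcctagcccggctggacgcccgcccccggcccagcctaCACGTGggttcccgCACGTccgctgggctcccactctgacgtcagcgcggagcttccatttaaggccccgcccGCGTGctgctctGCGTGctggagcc
Pgk1 (chrX:106186850-106187149, plus strand): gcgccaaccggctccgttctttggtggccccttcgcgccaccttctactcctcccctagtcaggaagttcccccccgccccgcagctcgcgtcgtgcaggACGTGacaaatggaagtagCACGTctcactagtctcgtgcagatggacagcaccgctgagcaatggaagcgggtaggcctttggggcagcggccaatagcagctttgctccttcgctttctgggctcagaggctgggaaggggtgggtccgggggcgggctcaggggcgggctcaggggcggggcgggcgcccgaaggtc
Slc16a3 holds its 2 cores on the same strand, with first bases 27 and 14 bases before the start, and Adm holds 2 on the reverse strand only. Ldha has 7 readings in this window, of which 4 come from 2 CACGTG palindromes.

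None of the 39 genes was called between KO and WT (0 of 39 by limma, lowest adjusted p = 0.354). At an unadjusted p under 0.05, 5 genes were lower in KO, against a background of 8.93% of all features, and 1 was higher, against 3.89%. KO and WT arrays did not overlap for 6 genes lower in KO (background 13.5%) and for 1 higher in KO (background 7.14%). The log2 fold change was under 0.25 in size for 28 genes and 0.25 or more for 11. Of the 39, 30 lay below 0, but against the median of all features 20 lay below and 19 above, and the median of the 39 was -0.094. The 7 genes without overlap were in the transport, hypoxia target and oxygen sensing groups, and none was a glycolytic enzyme. The 6 genes at an unadjusted p under 0.05 became 1, 2 and 2 without KO replicates 1, 2 and 3, and 3, 4 and 3 without WT replicates 1, 2 and 3.

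**Figure D1:**
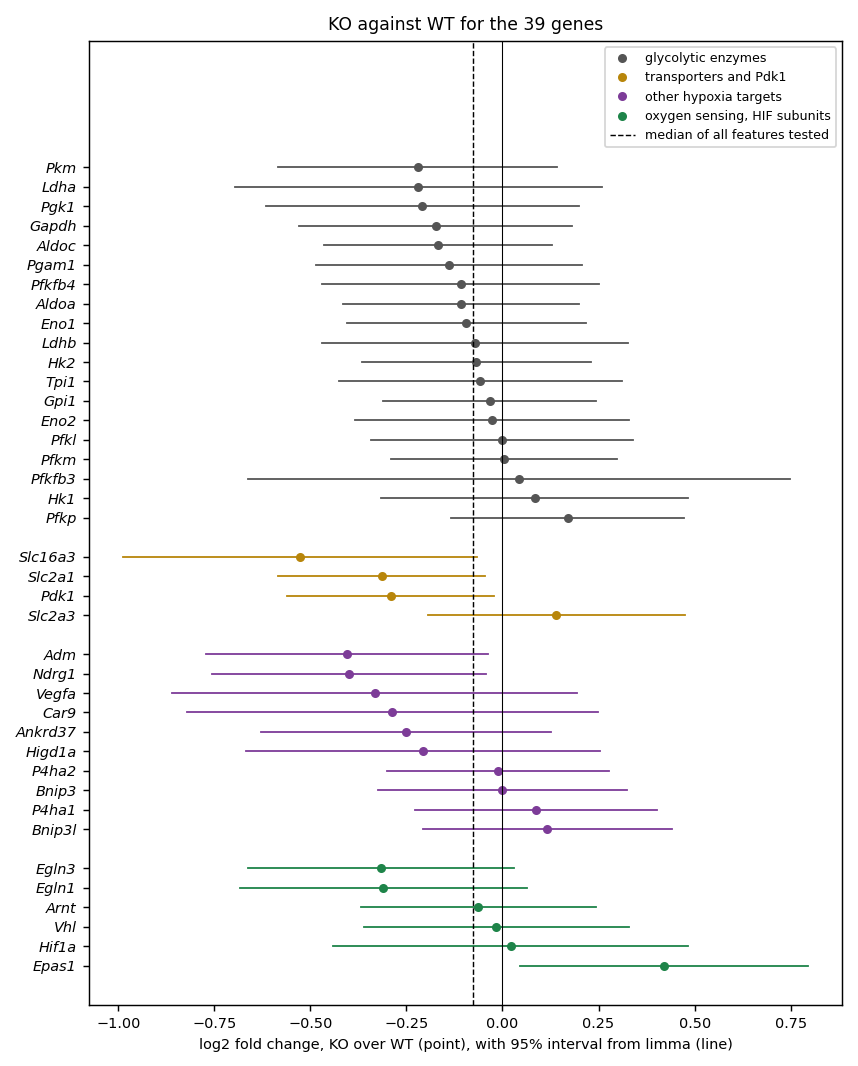
Log2 fold change of KO over WT for the 39 genes on the horizontal axis, by group, with points for limma's estimates, lines for their 95% intervals (n = 3 each) and a dashed line for the median of all features (-0.076). The intervals of all 19 glycolytic enzymes include 0, while those of Slc16a3, Slc2a1, Pdk1, Adm, Ndrg1 and Epas1 do not.

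The glycolytic enzymes had a median log2 fold change of -0.072, against -0.076 for all features, with 10 above and 9 below that median, a range of -0.22 (Pkm) to 0.17 (Pfkp) and 0 of 19 at an unadjusted p under 0.05 (background 12.8%). No enzyme had KO and WT arrays without overlap (background 20.6%). The count below the median of all features rested on single arrays: it was 6, 12 and 13 without KO replicates 1, 2 and 3, and 14, 12 and 4 without WT replicates 1, 2 and 3. Of the hexokinases, which trap glucose in the cell as its phosphate, Hk1, the housekeeping form, had levels of 4.17, 4.41 and 4.44 on the KO arrays, against 3.96, 4.46 and 4.35 on the WT arrays (0.083 ± 0.17). Hk2, the inducible form, had -1.09, -0.89 and -1.0 on the KO arrays, against -0.95, -0.80 and -1.03 on the WT arrays (-0.069 ± 0.13). Both genes' groups overlapped, and the intervals of the differences ran from -0.32 to 0.48 for Hk1 and -0.37 to 0.23 for Hk2. Phosphofructokinase, the main control point of the pathway, is assembled from subunits of 3 types. The liver-type Pfkl had levels of 0.85, 0.99 and 0.88 on the KO arrays, against 0.79, 0.78 and 1.15 on the WT arrays (-0.0019 ± 0.14). The muscle-type Pfkm (0.0045 ± 0.12) had 2.98, 3.05 and 3.18 on the KO arrays, against 2.96, 3.16 and 3.07 on the WT arrays. The platelet-type Pfkp had -0.10, 0.0099 and 0.017 on the KO arrays, against -0.25, -0.027 and -0.30 on the WT arrays. Its difference was the highest of the enzymes (0.17 ± 0.13, adjusted p = 0.568), although its WT replicate 2 lay within the KO values and its second probe gave -0.0066 ± 0.18. Pfkfb3 and Pfkfb4 make and break down fructose 2,6-bisphosphate, the activator of phosphofructokinase, and had 0.043 ± 0.30 and -0.11 ± 0.15.

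Below phosphofructokinase the enzymes lay between -0.22 and -0.027, and none was called, while with median centring all of them except Pgk1, Pkm and Ldha lay above 0. The aldolases Aldoa (-0.11 ± 0.13) and Aldoc (-0.17 ± 0.13), Tpi1 (-0.058 ± 0.16), Gapdh (-0.17 ± 0.15), Pgk1 (-0.21 ± 0.17), Pgam1 (-0.14 ± 0.15) and the enolases Eno1 (-0.094 ± 0.13) and Eno2 (-0.027 ± 0.15) all had overlapping groups. Gpi1, the isomerase that precedes phosphofructokinase, was at -0.034 ± 0.12. Pkm, pyruvate kinase, the last step to pyruvate, had levels of 4.38, 4.51 and 4.57 on the KO arrays, against 4.62, 4.53 and 4.97 on the WT arrays (-0.22 ± 0.15, adjusted p = 0.541). Ldha, the lactate dehydrogenase subunit that HIF1A induces, had 5.56, 5.68 and 5.71 on the KO arrays, against 5.75, 5.57 and 6.30 on the WT arrays. Its difference was -0.22 ± 0.20 (adjusted p = 0.632), with WT replicate 3 above the other 5 arrays, which lay between 5.56 and 5.75. Without WT replicate 3 it was -0.0059, and Aldoa was -0.033, Pgam1 -0.043, Pgk1 -0.039, Gapdh -0.050 and Pkm -0.090. Ldhb, the subunit typical of oxidative tissue, had 2.81, 2.91 and 3.05 on the KO arrays, against 3.23, 2.70 and 3.06 on the WT arrays (-0.072 ± 0.17). WT replicate 3 was the highest array for 11 of the 19 enzymes, and KO replicate 1 the lowest for 7. The part of WT replicate 3's neutrophil and Schwann cell markers in this pattern was not tested. Gapdh and several other enzymes of the pathway have near-identical pseudogene copies in the mouse genome, so their probe values may include such transcripts and are uncertain to that extent.

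Of the genes that carry glucose and lactate across the membrane or hold back the oxidation of pyruvate, 3 of 4 were lower in KO with no overlap and an unadjusted p under 0.05 (background 13.5% and 8.93%), and none was called. The median of the 4 was -0.30. This group was chosen with earlier results of these data known, so its count and median are descriptions and not support for a group effect. Slc2a1, the glucose transporter GLUT1, had levels of 2.67, 2.58 and 2.55 on the KO arrays, against 2.98, 2.86 and 2.89 on the WT arrays. All 3 KO arrays lay below all 3 WT arrays, with a log2 fold change of -0.31 ± 0.11 (80.4% of WT, 95% interval 66.8% to 96.9%; adjusted p = 0.354). Slc16a3, the lactate exporter MCT4, had -0.80, -0.41 and -0.63 on the KO arrays, against -0.17, 0.26 and -0.35 on the WT arrays. It was the lowest of the 39 genes by log2 fold change, at -0.53 ± 0.19 (69.5% of WT, 95% interval 50.5% to 95.6%; adjusted p = 0.359), and the gap between the groups was small, -0.41 in KO replicate 2 against -0.35 in WT replicate 3. Pdk1, the kinase that switches off pyruvate dehydrogenase, had -0.59, -0.46 and -0.55 on the KO arrays, against -0.21, -0.30 and -0.21 on the WT arrays. Its difference was -0.29 ± 0.11 (81.7% of WT, 95% interval 67.8% to 98.4%; adjusted p = 0.371). Slc2a3, the neuronal glucose transporter GLUT3, had -0.42, -0.49 and -0.21 on the KO arrays, against -0.37, -0.67 and -0.49 on the WT arrays, and its groups overlapped (0.14 ± 0.14, adjusted p = 0.659).

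Relative to the median of all features, Slc16a3 lay at -0.45, Slc2a1 at -0.24 and Pdk1 at -0.22. The signs of these 3 genes were negative under all 18 alternatives, from -0.66 to -0.35 for Slc16a3, -0.35 to -0.14 for Slc2a1 and -0.36 to -0.11 for Pdk1. Most alternatives could not change the sign. Filters, blocks and the variance trend left the values as they were, and leaving out arrays cannot reverse groups without overlap. Only other scalings, the authors' values and, for Slc16a3, the mean of its probes could have done so. Row 1 of the slide holds 2 arrays of each group and row 2 holds 1. Slc2a1 was -0.33 in row 1 and -0.29 in row 2. Slc16a3 was -0.45 in row 1 and -0.67 in row 2, and Pdk1 -0.36 in row 1 and -0.15 in row 2. Groups without overlap must give the same sign in both rows, so only the sizes can differ. The count of 3 at an unadjusted p under 0.05 depended on the processing and on single arrays: it was 0 with median centring and without KO replicate 3, 1 without KO replicate 1, KO replicate 2 or WT replicate 1, with the replicate number or the slide row as a block and in row 1 alone, and 2 without WT replicate 2 or 3 and with no filter on dim probes. Slc2a1 is known from capillary endothelium of the brain. The summed level of 8 endothelial markers, all well above background on the 6 arrays, was 29.4 to 32.6 in KO and 28.8 to 35.8 in WT. These ranges overlapped. The summed level of 5 fibroblast markers, all well above background on the 6 arrays, was 73.1 to 108 in KO and 90.9 to 123 in WT, with overlap. Their mean, each marker centred over the 6 arrays, was lower on every KO array than on every WT array (-0.022, -0.39 and -0.19 on the KO arrays, against 0.15, 0.093 and 0.36 on the WT arrays), as were the sum and the mean of the neutrophil markers. The part of these cells in the result was not tested. In RNA of a whole gland, fewer cells of a type and less RNA per cell cannot be told apart.

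**Figure D2:**
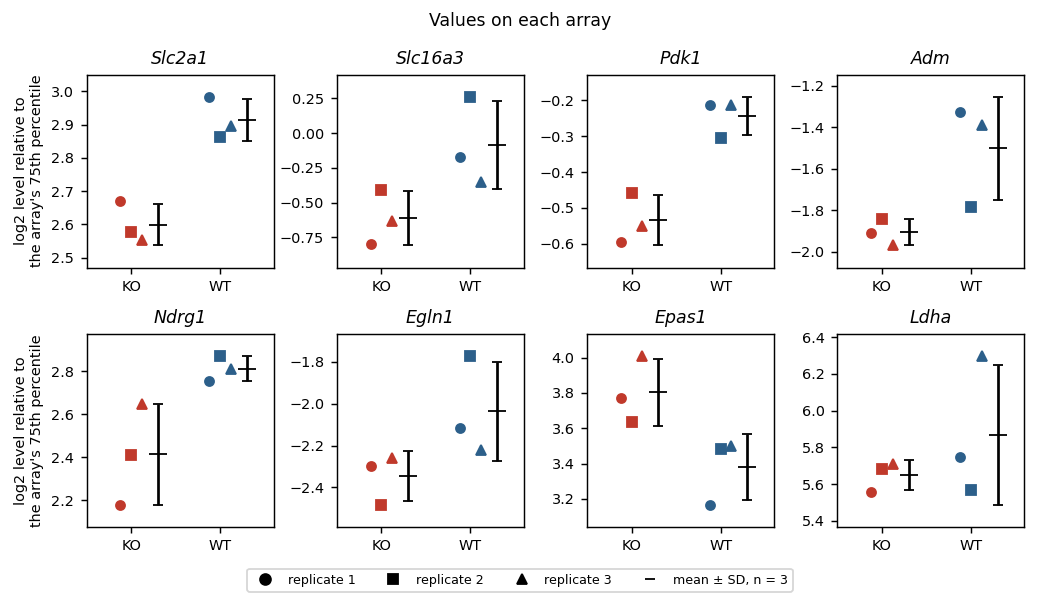
Log2 level relative to each array's 75th percentile for 8 genes, with symbols for replicates (red KO, blue WT) and bars for mean ± SD (n = 3), each panel on its own axis range. KO and WT arrays do not overlap for Slc2a1, Slc16a3, Pdk1, Adm, Ndrg1, Egln1 and Epas1, and for Ldha only WT replicate 3 lies apart.

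Of the other hypoxia targets, 8 of 10 lay below 0 (6 with median centring, where Bnip3 and P4ha2 lay above) with a median of -0.23. Against the median of all features 6 lay below and 4 above, and 2 of 10 had an unadjusted p under 0.05, both lower in KO (background 8.93%), with none called. Adm, which encodes the vasodilator peptide adrenomedullin, had levels of -1.91, -1.84 and -1.97 on the KO arrays, against -1.33, -1.79 and -1.39 on the WT arrays. The KO arrays were close together (SD 0.063) and just below WT replicate 2, while WT replicates 1 and 3 were higher, which gave -0.40 ± 0.15 (75.5% of WT, 95% interval 58.6% to 97.4%; adjusted p = 0.366). Ndrg1, a stress-induced gene that is also known from myelinating Schwann cells, had 2.18, 2.41 and 2.65 on the KO arrays, against 2.75, 2.87 and 2.81 on the WT arrays. Here the WT arrays were close (SD 0.058) and the KO arrays spread (SD 0.23), with -0.40 ± 0.15 (75.8% of WT, 95% interval 59.2% to 97.0%; adjusted p = 0.361). Without WT replicate 3, where Schwann cell markers were highest, Ndrg1 was -0.40 and Adm -0.35. Of the 7 Schwann cell markers, however, 2 (Mag and Pmp22) were lower on every KO array than on every WT array (background 13.5%). The others overlapped, and Mbp lay above 0. The part of Schwann cells in the Ndrg1 value was not tested. Vegfa, the main angiogenic growth factor, had -1.04, -0.78 and -0.46 on the KO arrays, against -0.81, -0.20 and -0.28 on the WT arrays. Its groups overlapped and its interval ran from -0.86 to 0.19 (-0.33 ± 0.22, adjusted p = 0.528). Ankrd37, a small ankyrin repeat gene and HIF1A target, had 1.25, 0.85 and 1.05 on the KO arrays, against 1.48, 1.29 and 1.14 on the WT arrays, again with overlap (-0.25 ± 0.16, adjusted p = 0.510).

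The remaining 6 targets had overlapping groups. Car9, a carbonic anhydrase that buffers acid outside the cell, was at -0.29 ± 0.23, and Higd1a, a mitochondrial inner membrane protein, at -0.21 ± 0.19, with WT replicate 3 (4.88) above the other arrays (4.19 to 4.33). Without that array Higd1a was at 0.00058 and Car9 at -0.11. Bnip3 and Bnip3l, the receptors for removal of mitochondria, were at -0.00036 ± 0.14 and 0.12 ± 0.14. The collagen prolyl hydroxylases P4ha1 and P4ha2 were at 0.087 ± 0.13 and -0.012 ± 0.12. The median of the 10 targets lay at -0.15 relative to the median of all features, but without WT replicate 3 it was at -0.10, or -0.019 relative to that median, and 0 of the 10 had an unadjusted p under 0.05, which was also the count without KO replicate 1, without KO replicate 2 and with median centring. Without KO replicate 1 it was at -0.070 on that scale. The transport group without WT replicate 3 had a median of -0.30, or -0.22 on that scale.

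Of the 6 genes of oxygen sensing none was called, and 1, Epas1, had an unadjusted p under 0.05 (higher in KO, background 3.89%), which it did not have without KO replicate 1, KO replicate 3 or WT replicate 1. Epas1, the alpha subunit typical of endothelium, had levels of 3.77, 3.63 and 4.01 on the KO arrays, against 3.17, 3.48 and 3.50 on the WT arrays. All KO arrays lay above all WT arrays (0.42 ± 0.16; 134% of WT, 95% interval 103% to 174%; adjusted p = 0.361). Its other probes did not agree: one, nearly as bright, gave -0.15 ± 0.17 and a dim one 0.23 ± 0.20, so the direction of Epas1 depends on the probe. With the mean of its probes it was at 0.17 (limma unadjusted p = 0.258). Egln1, the main oxygen sensor, had -2.30, -2.48 and -2.26 on the KO arrays, against -2.12, -1.77 and -2.22 on the WT arrays. The groups did not overlap, but by -2.26 in KO replicate 3 against -2.22 in WT replicate 3, and the unadjusted p was 0.0897 (-0.31 ± 0.16, adjusted p = 0.436). Egln3, a prolyl hydroxylase that is itself induced by HIF, had -3.62, -3.54 and -3.25 on the KO arrays, against -3.03, -3.17 and -3.27 on the WT arrays (-0.32 ± 0.15, adjusted p = 0.412). KO replicate 3 lay within the WT values, and the second, dimmer probe of Egln3, without overlap, gave -0.57 ± 0.25. Both probes of Egln3 are dim, and its size depended on the scaling (-0.10 with quantile normalization).

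Hif1a had levels of 1.40, 1.33 and 1.59 on the KO arrays, against 1.02, 1.62 and 1.61 on the WT arrays (0.022 ± 0.20), and its spread was set by WT replicate 1. Arnt, the shared partner of the alpha subunits, had 1.56, 1.26 and 1.42 on the KO arrays, against 1.44, 1.55 and 1.43 on the WT arrays (-0.063 ± 0.13), with a dimmer second probe at 0.29 ± 0.14. Vhl, which targets the alpha subunits for degradation, had 2.55, 2.49 and 2.52 on the KO arrays, against 2.79, 2.37 and 2.45 on the WT arrays (-0.016 ± 0.15). The 3 genes' groups overlapped, and the intervals ran from -0.44 to 0.48 for Hif1a, -0.37 to 0.24 for Arnt and -0.36 to 0.33 for Vhl. HIF activity is regulated mainly through the stability of the alpha subunit proteins, which these arrays do not measure. Within the rows of the slide Epas1 was 0.56 in row 1 and 0.15 in row 2, and Egln1 -0.11 in row 1 and -0.71 in row 2. Adm was -0.58 in row 1 and -0.057 in row 2, and Ndrg1 -0.37 in row 1 and -0.46 in row 2. These genes had no overlap, so their signs had to be the same in both rows. Only the sizes could differ, and Adm in row 2 was near 0.

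Several genes are measured by more than 1 probe. Of the 67 probes, 65 passed the filter, and the second probes of Pfkfb3 and Pfkfb4 did not. The probe used for a gene was the brightest, and it was well above background on all 6 arrays for each of the 39 genes. Of the 15 genes with more than 1 passing probe, 11 had all probes on 1 side of 0, and Epas1, Pfkp, Bnip3 and Arnt had probes on both sides. The 7 probes of Gapdh ran from -0.27 to -0.12 and the 3 of Ldha from -0.29 to -0.18, and the 4 of Bnip3l from 0.065 to 0.12. Slc16a3's second probe was at -0.39 ± 0.18, with WT replicate 3 level with KO replicate 2, and Vegfa's second probe at -0.15 ± 0.37. Slc2a1, Pdk1, Adm, Ndrg1 and Egln1 each have a single probe, so that check is not available for them.

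**Figure D3:**
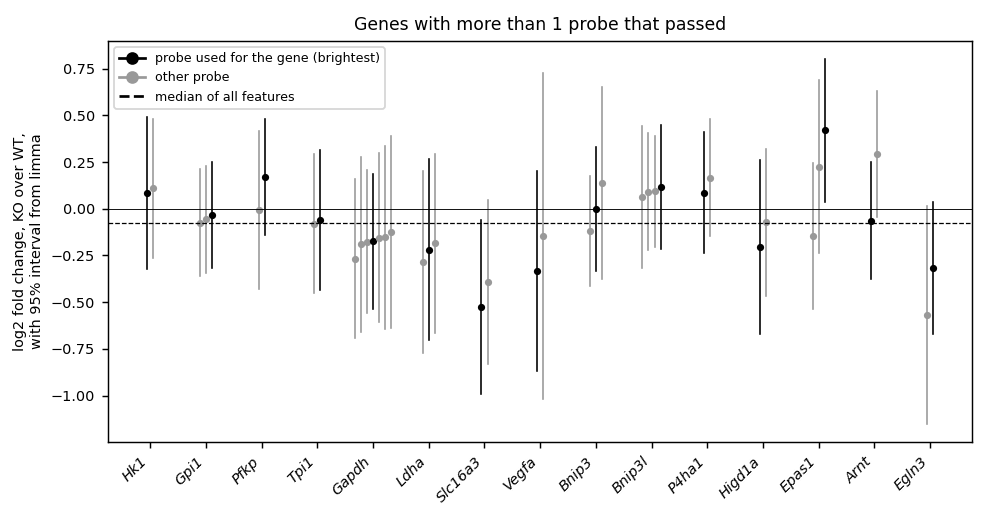
Log2 fold change of KO over WT (vertical axis) for each passing probe of the 15 genes with more than 1, black for the probe used and grey for the others, with 95% intervals from limma and a dashed line at the median of all features. The probes of Gapdh, Ldha and Bnip3l lie close together, and those of Epas1 and Arnt lie on both sides of 0.

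Averaged over a group of genes, each centred on its mean over the 6 arrays, the enzymes were at -0.14, 0.013 and 0.014 on the KO arrays, against -0.048, -0.028 and 0.19 on the WT arrays. WT replicate 3 alone stood high and KO replicate 1 alone low, and the other 4 arrays of both groups lay together. The transport genes and Pdk1 were at -0.18, -0.089 and -0.10 on the KO arrays, against 0.16, 0.14 and 0.065 on the WT arrays, with every KO array below every WT array. The other hypoxia targets were at -0.15, -0.082 and -0.017 on the KO arrays, against 0.010, 0.10 and 0.14 on the WT arrays, where KO replicate 3 and WT replicate 1 nearly met. The genes of oxygen sensing were at -0.022, -0.13 and 0.090 on the KO arrays, against -0.035, 0.099 and 0.0015 on the WT arrays, with overlap. On the same scale the neutrophil markers were at 1.87 in WT replicate 3 and between -0.72 and -0.035 on the other arrays.

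**Figure D4:**
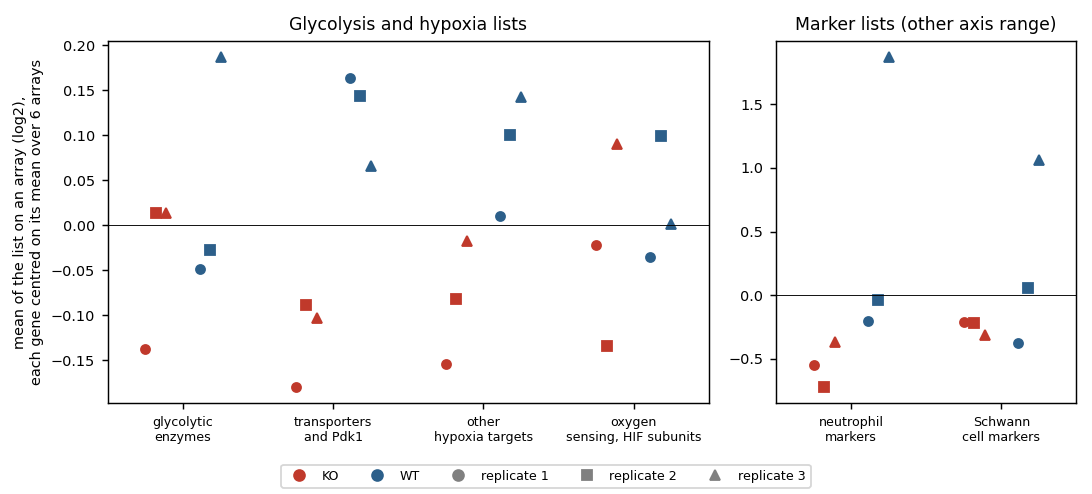
Mean of each gene group on each array (log2, each gene centred on its mean over the 6 arrays), red for KO and blue for WT, with symbols for replicates. The left panel holds the 4 groups of the 39 genes, and the right panel neutrophil and Schwann cell markers on a wider axis, where WT replicate 3 stands at 1.87 and 1.06.

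The scaling of the arrays decided the sign of small differences. Under median centring in place of the 75th percentile the median of all features was 0.10 and not -0.076, so a group is best read against that median. On that footing the enzymes' median ranged from -0.089 to 0.079 over the 18 alternatives, the transport group's from -0.29 to -0.15 and the other hypoxia targets' from -0.16 to -0.019. The enzymes thus stayed on either side of the whole array, the transport group stayed below it, and the other hypoxia targets stayed below it by amounts that depended on the setting and on WT replicate 3. The groups of genes were chosen with earlier results of these data known, and the difference between them was not tested. No member was called under any of the 18 alternatives.

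**Figure D5:**
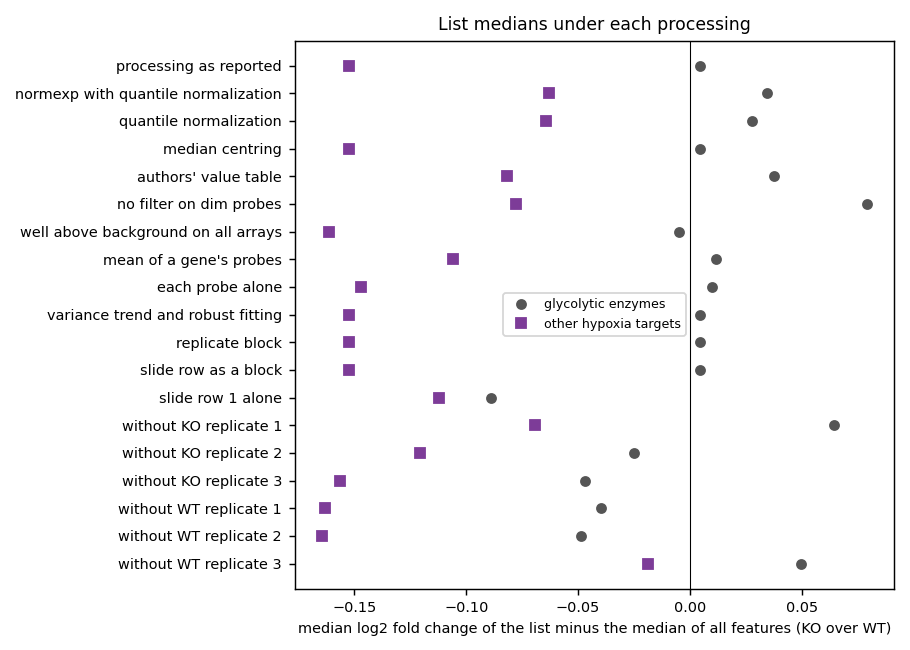
Median log2 fold change (KO over WT) of the glycolytic enzymes and of the other hypoxia targets minus the median of all features, for the processing as reported and 18 alternatives. The hypoxia targets lie to the left of 0 throughout, closest without WT replicate 3 (-0.019), and the enzymes lie between -0.089 and 0.079.

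Further genes of the same pathways were read from the same test. Limma called 0 of them at an adjusted p under 0.05. Of 17 further glycolysis genes, 16 passed the filter, with a median of 0.074, 12 above the median of all features, and 2 higher and 0 lower at an unadjusted p under 0.05. These were Hkdc1 and Tigar, against a background of 3.89%. Hkdc1, a hexokinase-like gene, was well above background on 3 KO arrays but on 1 WT array. It thus passed the filter through the KO arrays, and neither its difference nor its part in these counts is interpreted. Tigar, which lowers fructose 2,6-bisphosphate, was at 0.55 ± 0.19 with overlap. Pfkfb1, which makes and breaks down that activator, was at -0.40 ± 0.17, also with overlap. Of 18 genes of pyruvate and lactate handling, 17 passed, with a median of -0.11, and 1 was lower (background 8.93%) and 0 higher (3.89%) at that p. It was Mpc1, a subunit of the mitochondrial pyruvate carrier (-0.48 ± 0.14, adjusted p = 0.317). Pdhx, a component of the pyruvate dehydrogenase complex (-0.29 ± 0.14), and Pdk2, another kinase of that complex (-0.28 ± 0.14), followed. All 7 pentose phosphate genes passed, with a median of -0.12, 3 above and 4 below the median of all features. At an unadjusted p under 0.05, 1 was higher (background 3.89%) and 0 lower (8.93%). It was Rpia, ribose 5-phosphate isomerase (0.38 ± 0.15). Tkt (-0.30 ± 0.18) and Pgls (-0.31 ± 0.23) followed, both with overlap.

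The further HIF targets had a median above that of all features. Of 29, 28 passed, with a median of 0.053, 19 above the median of all features, and 2 higher (background 3.89%) and 0 lower (8.93%) at an unadjusted p under 0.05. Ppp1r3c, which targets a phosphatase to glycogen, had levels of -0.46, -0.35 and -0.0097 on the KO arrays, against -1.65, -1.54 and -1.39 on the WT arrays (1.25 ± 0.16, adjusted p = 0.123). Mxi1, an antagonist of MYC, was at 0.69 ± 0.28, and Hmox1, haem oxygenase, at 0.52 ± 0.23, both with overlap. HIF targets of the 2 lists thus lay on both sides of the array's median, and a difference between the lists was not tested. Of 14 further genes of the HIF pathway, 2 were higher (background 3.89%) and 3 lower (8.93%) at that p, with a median of -0.045. Cited2, which competes with HIF1A for its coactivator, had 1.42, 1.34 and 1.44 on the KO arrays, against 2.08, 2.19 and 3.01 on the WT arrays (-1.03 ± 0.25, adjusted p = 0.268). Its KO arrays were close together, and the WT arrays spread (SD 0.51). Rbx1, a part of the ubiquitin ligase that VHL belongs to, was at -0.39 ± 0.15 and Siah1a, a ubiquitin ligase, at -0.42 ± 0.16. The 2 higher genes, named after their values were seen to complete the count, were Ep300, the coactivator (0.44 ± 0.19), and Arnt2, a relative of Arnt (0.36 ± 0.15).

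The mean of the 39 genes over the 6 arrays was -0.13, -0.044 and 0.0056 on the KO arrays, against -0.0096, 0.042 and 0.13 on the WT arrays. Outside the lists, the 5 features with the highest Pearson correlation with that mean over the 6 arrays were Mapkapk5 (0.996), Tbl3 (0.995), Tmem14c (0.995), Hagh (0.994) and Bub1b (0.992). The values share arrays and scaling and were picked as the highest of all features, so they are descriptions of 6 arrays.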

How the data were processed

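Per the labels, total RNA of 6 pituitaries from separate animals was labelled with Cy3. The intensity values deposited for each spot had been background-subtracted and detrended by Agilent Feature Extraction 11.0.1.1, per the file headers, with all arrays on 1 slide and in 1 scan. The authors' deposited table of processed values is on a log2 scale. The sources used here do not say how it was normalized, and the submitters' processing notes name only limma. Its columns correlated at 0.997 or more with the log2 median signal of the same array and have medians of 8.25 to 8.26, so scale and direction are known, and centring is not.

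Control and outlier spots were removed, log2 intensities of a probe's spots were averaged, and every array was set relative to its 75th percentile. A probe had to be well above background on 3 or more arrays (36738 of 55681), and the brightest one stood for its gene. RefSeq accessions gave symbols for 27656 probes. Limma 3.58.1 in R 4.3.3, with the data.table package (version 1.17.8), compared KO with WT over 26889 features (two-sided). Calls needed a Benjamini-Hochberg adjusted p under 0.05. The script was tested on simulated data. Lists are described by counts and medians, with no test of a list.

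The members, lists, markers and alternatives were chosen with earlier results of these data known. Values per array are given for members without overlap or with an unadjusted p under 0.05, the 10 members with the smallest p, the regulated enzymes and the genes of oxygen sensing. Of each other list, up to 3 genes with the smallest p are named, and Ep300 and Arnt2 were added after their values were seen. Deviations of same-numbered KO and WT arrays correlated at 0.15, -0.18 and -0.084. With 3 arrays in each group these values cannot tell whether the numbers pair the animals, and the fit as reported did not pair them. The alternatives were normexp (offset 50), other scalings (quantile, median), the values processed by the authors, other filters, other uses of probes, a variance trend, blocks, slide row 1 alone and each array left out.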

Additional observations from a re-analysis of the deposited data

How the results depend on the processing

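Over 18 alternatives no member passed an adjusted p under 0.05. Slc2a1, Slc16a3, Pdk1, Adm, Ndrg1 and Egln1 stayed below 0 and Epas1 above 0 in all of them. These are the members without overlap, so leaving out arrays or taking slide row 1 alone could not change their sign. Filters, blocks and the variance trend left their values as they were. Only other scalings, the authors' values and averaging of probes could change the sign. The sizes of dim genes changed more. Adm, -0.40 as reported, was -0.18 with normexp and -0.17 in the authors' table. Egln1, -0.31 as reported, was -0.10 with normexp and -0.11 in the authors' table. Egln3, which had overlap, was -0.32 as reported and -0.042 with normexp. With the mean of its probes Epas1 was at 0.17 (limma unadjusted p = 0.258), against 0.42 as reported. Limma's count of called features, 0 as reported, was 21 with normexp, 19 with median centring, 27 in the authors' table, 11 with the filter for all arrays, 27 with a variance trend and robust fitting, 15 at an adjusted p under 0.1 and 3446 at an unadjusted p under 0.05, and 0 to 1 without single arrays (1 without WT replicate 1). The enzymes' median, -0.072 as reported, was 0.040 with normexp, 0.043 with quantile normalization and 0.11 with median centring. The median of the other hypoxia targets, -0.23 as reported, was -0.057 with normexp, -0.049 with quantile normalization, -0.050 with median centring and -0.088 in the authors' table, which lacks Car9 and Egln3, and -0.24 to -0.10 without single arrays. Against the median of all features the same group, -0.15 as reported, was at -0.063 with normexp, -0.064 with quantile normalization, -0.082 in the authors' value table, -0.078 with no filter on dim probes and -0.16 to -0.019 without single arrays. Of the members, 6 had an unadjusted p under 0.05 as reported, against 1 with median centring, 3 with the replicate block, 2 with slide row as a block, 3 in slide row 1 alone and 1 to 4 without single arrays. Of the enzymes, 1 did so with normexp and 1 with quantile normalization. Whether the replicate numbers pair the animals cannot be told from 3 arrays in each group. The replicate block left each log2 fold change as it was and called 0 features, and KO replicate 1 alone correlated best with its own number. The causes were not tested. With normexp and quantile normalization the sign of these genes was the opposite of that reported: Hk2 0.027, Gpi1 0.24, Pfkl 0.0032, Aldoa 0.19, Aldoc 0.040, Tpi1 0.060, Gapdh 0.14, Pgam1 0.13, Eno1 0.057, Eno2 0.00090, Bnip3 0.079, P4ha2 0.010 and Vhl 0.090. With quantile normalization the sign of these genes was the opposite of that reported: Gpi1 0.26, Pfkl 0.0071, Aldoa 0.21, Aldoc 0.064, Tpi1 0.099, Gapdh 0.12, Pgam1 0.027, Eno1 0.055, Bnip3 0.12, Car9 0.027, P4ha2 0.010 and Vhl 0.010. With median centring the sign of these genes was the opposite of that reported: Hk2 0.11, Gpi1 0.15, Pfkl 0.18, Pfkfb4 0.070, Aldoa 0.072, Aldoc 0.0098, Tpi1 0.12, Gapdh 0.0049, Pgam1 0.040, Eno1 0.085, Eno2 0.15, Ldhb 0.11, Bnip3 0.18, P4ha2 0.17, Arnt 0.12 and Vhl 0.16. In the authors' value table the sign of these genes was the opposite of that reported: Hk2 0.012, Gpi1 0.16, Aldoa 0.14, Aldoc 0.0070, Tpi1 0.053, Gapdh 0.11, Pgam1 0.11, Eno1 0.042, Bnip3 0.093, P4ha2 0.0041 and Vhl 0.086. With the mean of a gene's probes the sign of these genes was the opposite of that reported: Bnip3 0.0056 and Arnt 0.12. In slide row 1 alone the sign of these genes was the opposite of that reported: Pfkfb3 -0.28, Eno2 0.079, P4ha2 0.0020 and Arnt 0.053. Without single arrays these genes crossed 0, with values from -0.14 to 0.015 for Arnt, -0.096 to 0.053 for Bnip3, -0.15 to 0.065 for Eno2, -0.089 to 0.010 for Gpi1, -0.18 to 0.12 for Hif1a, -0.34 to 0.00060 for Higd1a, -0.063 to 0.19 for Hk1, -0.22 to 0.044 for Ldhb, -0.060 to 0.048 for P4ha2, -0.16 to 0.38 for Pfkfb3, -0.17 to 0.0014 for Pfkfb4, -0.065 to 0.12 for Pfkl, -0.050 to 0.054 for Pfkm, -0.18 to 0.053 for Tpi1 and -0.098 to 0.11 for Vhl. The 3 arrays a group limit the precision of all these values.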

Other observations

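Markers of the cells a whole pituitary holds were read from the same test, and limma called 0 of them. All 8 neutrophil markers were below the median of all features (median -1.07), and all except Lcn2 and Elane had their highest value in WT replicate 3. S100a8 had levels of -2.57, -2.82 and -2.30 on the KO arrays, against -1.48, -2.08 and 1.23 on the WT arrays. Of 7 Schwann cell markers 6 were below it (median -0.41, Mag at -0.54 ± 0.19), and so were all 5 fibroblast markers (median -0.34), with the collagen gene Col1a1 at -0.83 ± 0.23 and the proteoglycan gene Dcn at -0.52 ± 0.17. All 5 erythroid markers that passed were below it (median -0.37), but their groups overlapped and each had its highest value in KO replicate 1. Their mean, each marker centred over the 6 arrays, was 0.75, -0.82 and -0.43 on the KO arrays. On the WT arrays that mean was 0.34, 0.18 and -0.014. Skeletal muscle markers lay below the median of all features for 3 of 4 (median -0.22). Of the posterior lobe and neural markers 4 of 7 were below (median -0.23), with the vasopressin gene Avp at -1.21 ± 0.35. Endothelial markers lay above it for 6 of 8 (median 0.055, Plvap at 0.31 ± 0.14 and Kdr at -0.37 ± 0.24), and macrophage markers for 4 of 6 (median 0.11). Pericyte markers lay above it for 2 of 4, with Rgs5 at 0.62 ± 0.24, and folliculostellate and stem cell markers for 2 of 5 (median -0.080). Hormone genes lay above it for 3 of 7 (median -0.22). Their part in the values of the glycolysis and hypoxia genes was not tested.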
